A study of Mus musculus with 9 samples.

Results

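The genes described here are the mitogen-activated protein kinases (MAP kinases), the kinases that switch them on and the phosphatases and feedback proteins that switch them off. Members were taken from the GENCODE M21 protein-coding genes by symbol: Mapk, Map2k, Map3k or Dusp followed by a number, or Spry or Spred followed by a digit, with a mean of at least 1 CPM (a gene's count as a share of its library, brought to a common total with TMM factors) over the 9 libraries. The symbols matched 68 genes, with 1 further match set aside by the rule, and 57 of the 68 reached that level, out of 55536 genes in the count files. They are 10 MAP kinases, 7 MAP kinase kinases (Map2k), 13 kinases of the tier above (Map3k), 21 dual specificity phosphatases (Dusp) and 6 Sprouty and Spred proteins. The level that decided membership had Mapk4 just inside at 1.08 CPM and Map3k19 just outside at 0.898 CPM, the highest of 11 genes left out, of which Dusp21 had no count in any library.

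Quadriceps RNA of C57BL/6 mice was sequenced after volumetric muscle loss, a surgical defect too large for muscle to refill, in 5 libraries labelled IL17ra -/- and 4 labelled wild type. The comparison asks how the labelled genotypes differ. Il17ra encodes a receptor subunit for interleukin-17 cytokines, and the allele is not described in the labels. All animals carry the same age tag of 6 weeks. The sample characteristics name saline and put the harvest at 1 week, but the extraction text names PCL, a polymer, and puts collection at 6 weeks, so neither treatment nor time is certain; both groups carry the same text. Libraries held 35.2 to 46.4 M counts under the Il17ra-/- label and 31.3 to 37.6 M under the wild-type label. Il17ra itself stood at 199.8, 185, 181, 284 and 191 CPM in the 5 libraries labelled Il17ra-/-, against 75.9, 107, 85.4 and 119 CPM in the 4 labelled wild type, so that the targeted gene was higher under the knockout label (log2 fold change 1.11, SE 0.17, edgeR adjusted p = 0.00208). Counts summed over all exons cannot show an allele that leaves most of the transcript in place. The reason for the higher level was not tested, nor was the labelling of the libraries. Every direction given here follows the labels. Wild-type replicate 2 stood apart on the first principal component and Il17ra-/- replicate 1 on the second. Ptprc, the leukocyte marker CD45, averaged 0.266 ± 0.171 CPM under the Il17ra-/- label and 0.112 ± 0.121 CPM under the wild-type label (mean ± SD, here and below, n = 5 and n = 4), where a count of 3 is worth 0.0638 to 0.0984 CPM; the summed level of the 8 leukocyte markers is given beside Map3k8. The fibre markers of the labelled tissue were present, but the 7 fibroblast markers summed to far more, at 39444 to 53606 CPM under the Il17ra-/- label and 46765 to 51325 CPM under the wild-type label.

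A MAP kinase cascade is a relay: a Map3k phosphorylates a Map2k, which phosphorylates a MAP kinase on a threonine and a tyrosine of its activation loop. The ERK branch mainly carries growth factor signals, while the JNK and p38 branches mainly carry stress and cytokine signals, and in injured muscle these pathways act in satellite cells, connective tissue cells and fibres. Dual specificity phosphatases remove both phosphates and are often induced by the kinases they switch off, and Sprouty and Spred proteins dampen the pathway between receptor and RAF, so these feedback genes are commonly read as a record of pathway output. Transcript counts measure neither phosphorylation nor kinase activity.

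The 300-base promoter windows of 3 members are shown because they belong to the called phosphatase gene (Dusp5), its abundant relative (Dusp1) and the called feedback gene (Spry1). They run from 250 bases before to 50 bases after the RefSeq transcript start, 5′ to 3′ on the gene's strand (GRCm38.p6): chr19:53528895-53529194 (plus) for Dusp5, chr17:26508423-26508722 (minus) for Dusp1 and chr3:37639697-37639996 (plus) for Spry1. Capitals mark CArG boxes, the binding motif of serum response factor, in Dusp5, the cAMP response element TGACGTCA in Dusp1, and the GC box GGGCGG in Spry1.
Dusp5: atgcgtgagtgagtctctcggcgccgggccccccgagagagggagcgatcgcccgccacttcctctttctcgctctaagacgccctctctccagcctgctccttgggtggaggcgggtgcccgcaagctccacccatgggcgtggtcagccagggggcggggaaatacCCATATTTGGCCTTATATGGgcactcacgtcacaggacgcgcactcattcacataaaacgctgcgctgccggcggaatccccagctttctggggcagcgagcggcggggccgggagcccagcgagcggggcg
Dusp1: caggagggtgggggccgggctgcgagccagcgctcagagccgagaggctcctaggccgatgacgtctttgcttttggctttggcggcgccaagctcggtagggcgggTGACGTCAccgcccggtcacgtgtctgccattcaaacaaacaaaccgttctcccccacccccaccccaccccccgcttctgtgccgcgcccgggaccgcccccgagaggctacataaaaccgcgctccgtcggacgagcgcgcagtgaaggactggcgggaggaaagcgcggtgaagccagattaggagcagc
Spry1: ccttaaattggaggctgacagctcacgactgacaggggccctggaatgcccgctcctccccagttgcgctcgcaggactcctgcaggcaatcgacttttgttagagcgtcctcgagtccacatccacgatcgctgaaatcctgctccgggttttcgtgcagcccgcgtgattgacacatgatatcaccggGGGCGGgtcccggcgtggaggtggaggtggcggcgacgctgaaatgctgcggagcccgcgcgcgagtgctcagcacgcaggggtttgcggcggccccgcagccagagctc

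The Dusp5 window held 2 CArG boxes side by side, the first base of each lying at −82 and −72 relative to the transcript start. The Dusp1 window held 1 cAMP response element, starting at −143. Only 1 kind of motif is marked in each window, and unmarked GC boxes lay in those of Dusp5 (1) and Dusp1 (3). The called member Map2k4 had 2 entries in the RefSeq table of windows, with none of the motifs searched, and is not shown. Map3k8, also called, was not among the members with a match to any motif searched, and no window of it is shown. Both strands were searched, and the marked sites of a window did not overlap one another. A CArG box was in 1.63% of the 32851 promoter windows of the RefSeq table and 2 or more were in 6 windows; the cAMP response element was in 1.79% and the GC box in 35.7%. Of the 57 members, 47 had a window in the table, and Dusp5 was the only one of these with a CArG box, while the cAMP response element was in the windows of Dusp1 and Dusp8. The AP-1 motif TGANTCA was in the windows of 4 members (8.51% of 47, against 7.81% of all windows) and the NF-kB motif in those of 2 (4.26% of 47, against 6.93%). The GC box was in the windows of 34 members (72.3% of 47). A member was counted if any of its windows held the motif, whereas the share of all windows counts each window. The shares are therefore not in the same unit, and members with more than 1 window have more chances of a match. A match is a string of letters and not a measured binding site.

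Across the 57 members, 4 passed the test at an adjusted p under 0.05: Map3k8 and Dusp5 fell and Map2k4 and Spry1 rose in the libraries labelled Il17ra-/-. That is 7.02% of the members, against 3.06% of the 16039 genes tested and 3.62% of the 13386 tested genes with a mean of at least 1 CPM. By direction, 2 members rose (1.35% of all tested genes rose) and 2 fell (1.71% of all tested genes fell). The median log2 fold change of the members was 0.034, against −0.0027 over all tested genes, and 31 of the 57 lay within 0.25 of 0 on the log2 scale (54.4%, against 52.1%). At an unadjusted p under 0.05 there were 17 members, or 29.8%, against 16.4% of all tested genes and 18.8% of those with a mean of at least 1 CPM. Of these, 11 had a positive log2 fold change (8.13% of all tested genes) and 6 a negative one (8.27%). The groups did not overlap for 14 members, or 24.6%, against 9.18% of all tested genes and 10.2% of those with a mean of at least 1 CPM. Libraries labelled Il17ra-/- were the higher ones for 10 of the 14 (4.63% of all tested genes) and the lower ones for 4 (4.56%). A positive log2 fold change was found for 35 members, against 49.7% of all tested genes, and for 29 without wild-type replicate 2. All 57 members passed the filter on low counts. Mapk4 was the only member whose mean lay under 1 CPM in one group, at 0.981 ± 0.713 CPM under the wild-type label. All log2 fold changes are Il17ra-/- label minus wild-type label, and adjusted p-values come from edgeR's quasi-likelihood test with Benjamini-Hochberg adjustment over all tested genes.

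**Figure D1:**
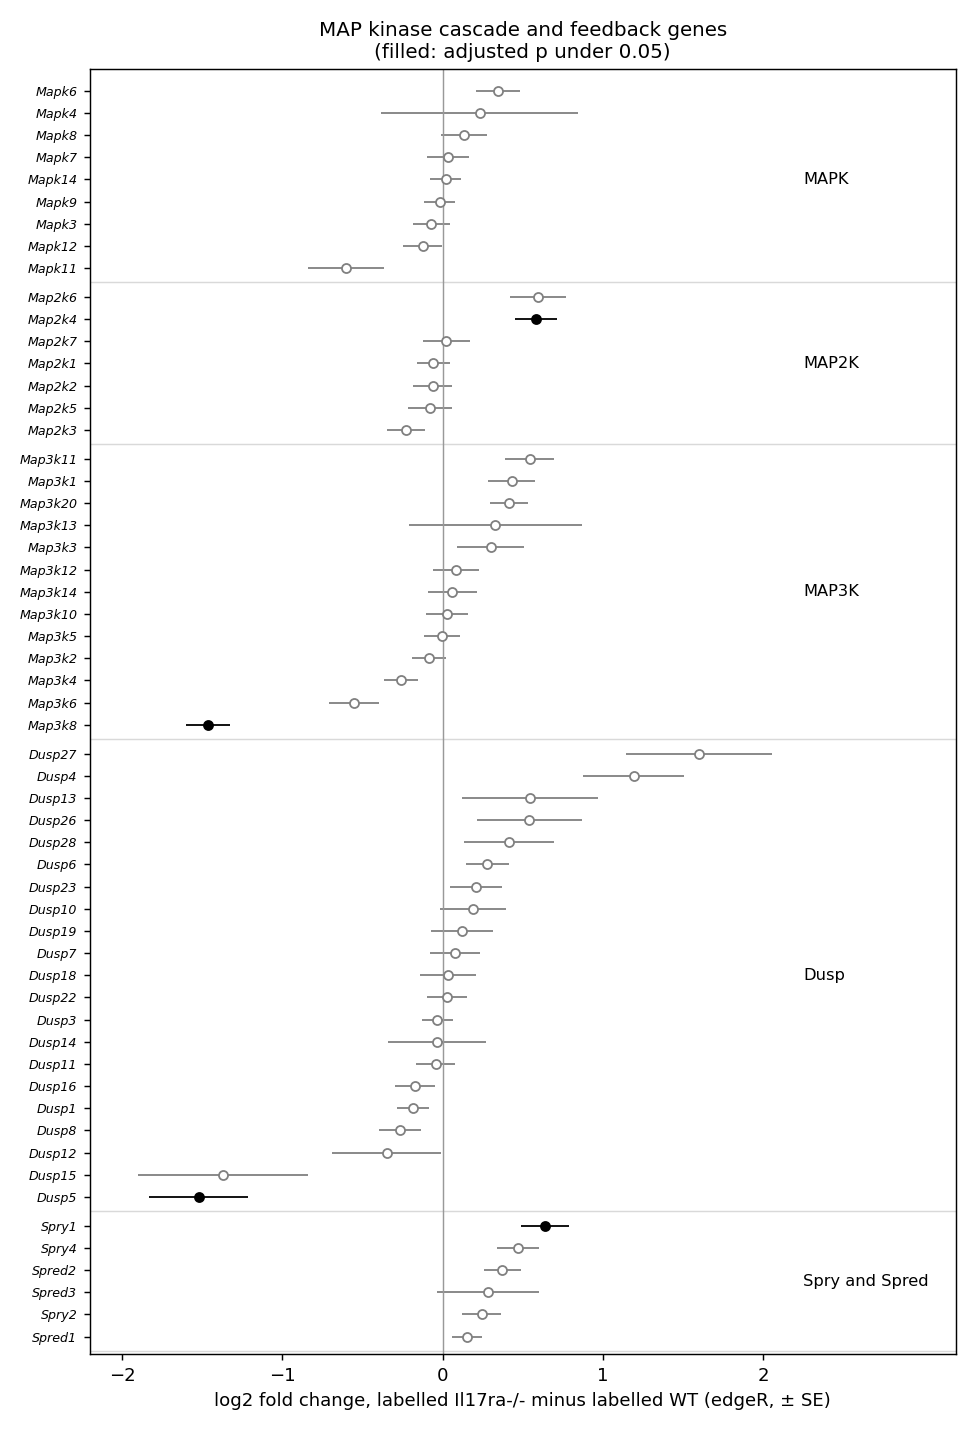
Log2 fold change (labelled Il17ra-/- minus labelled WT, edgeR) with its standard error for 56 of the 57 members, grouped by tier and sorted within it; filled points are the 4 members with an adjusted p under 0.05. Map3k8 and Dusp5 sit at −1.46 and −1.52 and Map2k4 and Spry1 at 0.58 and 0.64.

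Map3k8, which encodes TPL2, the kinase that carries signals of Toll-like, interleukin-1 and tumour necrosis factor receptors to MEK1/2 and ERK, was the member with the smallest p. It stood at 14.5, 21.7, 14.9, 16.6 and 15.3 CPM in the libraries labelled Il17ra-/-, against 42.4, 49.7, 47.2 and 43.6 CPM in those labelled wild type. The highest library labelled Il17ra-/- (replicate 2) lay below the lowest library labelled wild type (replicate 1) by a wide margin. Means were 16.6 ± 2.94 CPM (SD, n = 5) and 45.7 ± 3.32 CPM (SD, n = 4), a log2 fold change of −1.46 (SE 0.14, edgeR adjusted p = 1.11e-04), with 570 to 1688 counts behind each value. The gene is at chr18:4331327-4353015, minus strand. No alternative ended its call. Macrophages and other leukocytes are known for Map3k8 expression, and their 8 markers summed to 8.32 to 15.6 CPM under the Il17ra-/- label and to 18.7 to 35.3 CPM under the wild-type label. Of the 5 tested, Cd68 fell and 3 had a positive log2 fold change (median 0.75), and the remaining Itgam, Cd3e and S100a8 had no count under the Il17ra-/- label. Their part in the fall of Map3k8 was not tested. In bulk RNA, fewer cells of a type and less RNA per cell cannot be told apart.

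**Figure D2:**
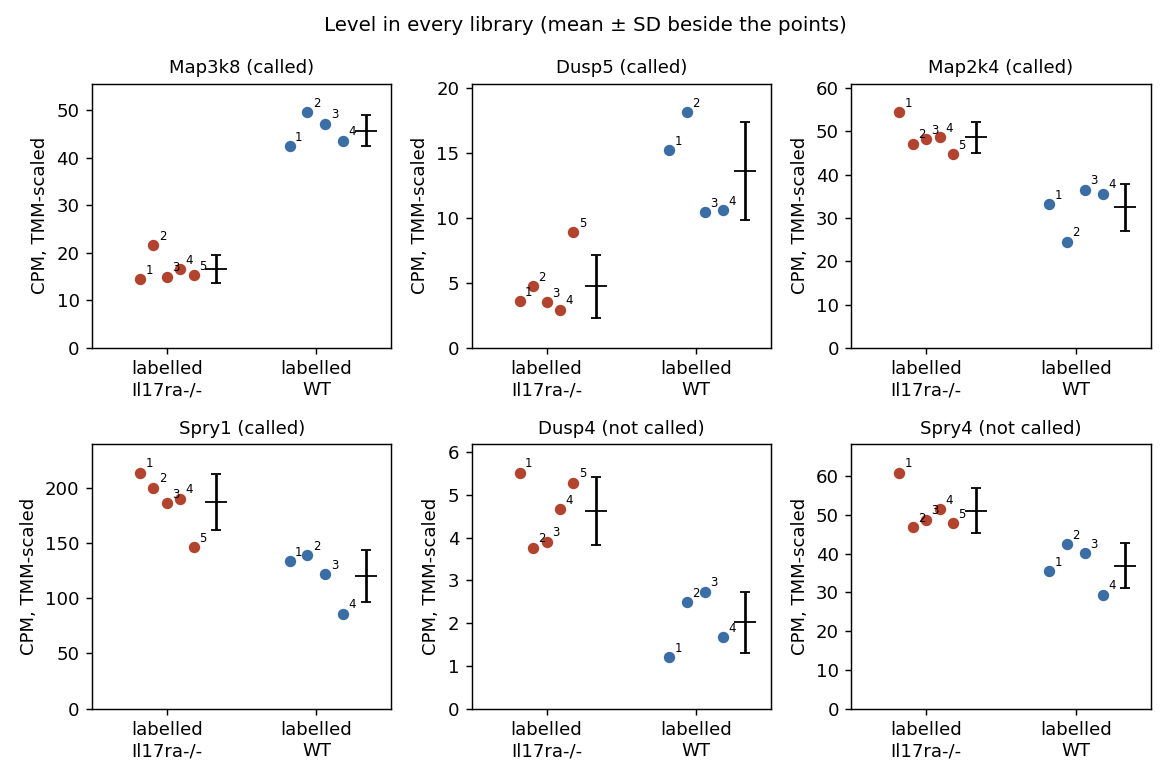
TMM-scaled CPM in each library (points, numbered by replicate) with mean ± SD beside them, labelled Il17ra-/- left (n = 5) and labelled WT right (n = 4), for the 4 called members and for Dusp4 and Spry4, which were not called. The groups do not overlap in any of the 6 panels; Map3k8 averages 16.6 ± 2.94 CPM under the Il17ra-/- label and 45.7 ± 3.32 CPM under the wild-type label.

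The other 12 Map3k genes did not pass the adjusted threshold, and they pointed both ways. Map3k14, which encodes NIK of the alternative NF-kB pathway, differed little, at 31.8 ± 4.39 CPM under the Il17ra-/- label and 30.5 ± 6.33 CPM under the wild-type label (adjusted p = 0.885). Map3k6, encoding ASK2, a partner of the oxidant-activated kinase ASK1, stood at 31.2, 19.2, 22.0, 33.0 and 24.4 CPM in the libraries labelled Il17ra-/-, against 40.4, 36.8, 37.6 and 37.3 CPM in those labelled wild type (log2 fold change −0.55, SE 0.16, adjusted p = 0.0794). Its groups did not overlap, and the 4 wild-type values were closer together than the other 5. Map3k6 was called lower under 4 of 18 alternatives: DESeq2, limma-voom, without Il17ra-/- replicate 4, and without wild-type replicate 2 and Il17ra-/- replicate 1 together. Map3k4, encoding MEKK4, a kinase bound by GADD45 proteins, also had separate groups, at 32.1 ± 2.74 CPM under the Il17ra-/- label and 38.4 ± 0.999 CPM under the wild-type label (log2 fold change −0.26, adjusted p = 0.229). Map3k5, which encodes ASK1 itself, had a log2 fold change of −0.0044 (SE 0.11).

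Above 0 but not called were Map3k11 (MLK3, a mixed lineage kinase upstream of JNK), Map3k20 (ZAK, which senses stalled ribosomes) and Map3k1 (MEKK1, an activator of the JNK branch), each with groups that did not overlap. Map3k11 had a log2 fold change of 0.54 (SE 0.15, adjusted p = 0.0774), from 21.8 ± 3.22 CPM under the Il17ra-/- label against 15.0 ± 1.97 CPM under the wild-type label. Map3k20 averaged 53.3 ± 3.78 CPM under the Il17ra-/- label and 39.9 ± 5.69 CPM under the wild-type label (log2 fold change 0.42, adjusted p = 0.0823). Map3k1 averaged 21.2 ± 2.13 CPM under the Il17ra-/- label and 15.7 ± 2.70 CPM under the wild-type label (log2 fold change 0.43, adjusted p = 0.157). Exons of Map3k11 overlap those of Pcnx3 on the other strand over 89 bp, and counting without strand cannot separate reads there. Map3k3, encoding MEKK3, an activator of the ERK5 branch, was the most abundant Map3k per exon length (RPKM, CPM per kb of exon), at 24.4 ± 0.910 RPKM under the Il17ra-/- label and 19.8 ± 6.90 RPKM under the wild-type label. Its values were 95.5, 96.2, 103, 100.2 and 94.7 CPM in the libraries labelled Il17ra-/-, against 90.2, 38.2, 97.9 and 91.8 CPM in those labelled wild type. Wild-type replicate 2 stood far below the other 8 libraries, and the log2 fold change was 0.30 with that library and 0.073 without it. The remaining members of this tier (Map3k2, Map3k10, Map3k12 and Map3k13) had adjusted p-values of 0.749 to 0.941. Of these, Map3k12 shares 1573 bp of its exons (17.5% of their length) with the abundant gene Pcbp2 on the other strand, so its value is uncertain. Map3k13, at a mean of 1.99 CPM, shares 227 bp with a noncoding gene on its own strand that averaged 8.69 CPM.

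Among the 7 Map2k genes, Map2k4 rose and the other 6 did not pass. Map2k4 encodes MKK4, which phosphorylates JNK and also p38. It stood at 54.5, 47.2, 48.2, 48.6 and 44.7 CPM in the libraries labelled Il17ra-/-, against 33.1, 24.5, 36.6 and 35.6 CPM in those labelled wild type. The groups did not overlap, and wild-type replicate 2 was the lowest of all. The log2 fold change was 0.58 (SE 0.13, edgeR adjusted p = 0.0256). It was 0.47 without wild-type replicate 2, where the gene stayed called. With single libraries left out, the call was lost without wild-type replicate 1 and without each of Il17ra-/- replicates 1, 2, 3 and 4 (adjusted p up to 0.0694). The gene is at chr11:65688243-65788297, minus strand.

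Map2k6, which encodes the p38 kinase MKK6, had a difference of like size at a lower level. Its values were 9.54, 9.81, 8.47, 7.62 and 9.67 CPM under the Il17ra-/- label and 5.86, 5.38, 5.70 and 6.97 CPM under the wild-type label, again without overlap (log2 fold change 0.59, SE 0.18, adjusted p = 0.0962). For Map2k3, encoding MKK3, the other dedicated p38 kinase, the log2 fold change was −0.23 (adjusted p = 0.356), with overlapping groups. For Map2k7, encoding MKK7, a kinase of JNK alone, it was 0.023 (adjusted p = 0.957). Map2k7 shares 1349 bp of its exons (35.2% of their length) with another protein-coding gene on its own strand, so its value is uncertain. The kinases of ERK, Map2k1 and Map2k2 (MEK1 and MEK2), and Map2k5, the kinase of ERK5, had log2 fold changes between −0.080 and −0.057. Map2k1 was the most abundant Map2k per exon length, at 20.2 ± 2.23 RPKM under the Il17ra-/- label and 21.1 ± 0.838 RPKM under the wild-type label. In single libraries it had 78.4, 66.7, 73.2, 66.6 and 58.4 CPM under the Il17ra-/- label, against 69.9, 71.3, 69.0 and 75.5 CPM under the wild-type label. The summed level of the 7 genes, with the uncertain value of Map2k7 included, was 73.7 ± 1.58 RPKM under the Il17ra-/- label and 73.2 ± 3.23 RPKM under the wild-type label.

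None of the 10 MAP kinases themselves passed, and 8 of them had a log2 fold change within 0.25 of 0, where 52.1% of all tested genes did. At an unadjusted p under 0.05 there were 2 of the 10, against 16.4% of all tested genes. Mapk3, which encodes the growth factor kinase ERK1, had a log2 fold change of −0.069 (SE 0.11). It was the most abundant MAP kinase per exon length and stood at 130.1, 121, 118, 117 and 99.3 CPM in the libraries labelled Il17ra-/-, against 121, 145, 110.1 and 114 CPM in those labelled wild type. The groups overlapped, with wild-type replicate 2 the highest library and Il17ra-/- replicate 5 the lowest. Mapk9 and Mapk8 (JNK2 and JNK1), Mapk14 (p38 alpha), Mapk12 (p38 gamma, a form enriched in skeletal muscle) and Mapk7 (ERK5) had adjusted p-values of 0.663 to 0.945. Exons of Mapk7 overlap those of Mfap4 on the other strand over 89 bp. Mfap4 averaged 207 CPM and fell (log2 fold change −0.53, edgeR adjusted p = 0.0330).

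The smallest p among MAP kinases belonged to Mapk11, the p38 beta gene, at 4.53, 3.04, 4.96, 4.58 and 3.59 CPM under the Il17ra-/- label and 6.05, 8.07, 4.86 and 6.14 CPM under the wild-type label. Its groups overlapped and it did not pass (log2 fold change −0.60, SE 0.24, adjusted p = 0.224). Mapk11 was a minor form, at 4.96 ± 1.13% of the summed p38 RPKM under the Il17ra-/- label and 7.13 ± 1.51% under the wild-type label. Mapk14 held 59.8 ± 1.26% under the Il17ra-/- label and 56.2 ± 5.21% under the wild-type label. Mapk6, which encodes the atypical kinase ERK3, averaged 47.2 ± 4.76 CPM under the Il17ra-/- label and 37.2 ± 6.86 CPM under the wild-type label, with overlapping groups (log2 fold change 0.34, adjusted p = 0.228), and Mapk4, its close relative ERK4, was barely detected. Mapk10 and Mapk13, the JNK3 and p38 delta genes, lay under the membership level, at means of 0.559 and 0.720 CPM.

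**Figure D3:**
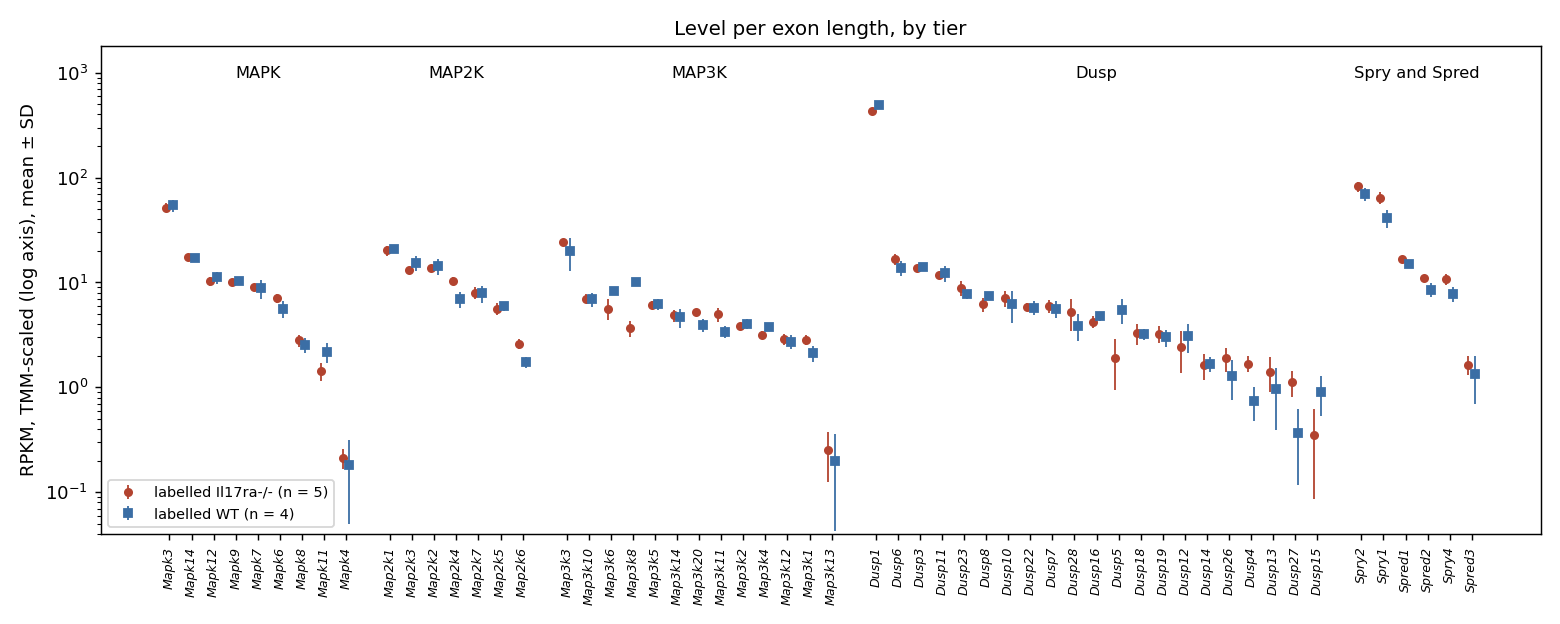
Mean ± SD of TMM-scaled RPKM on a log axis for 56 of the 57 members, by tier, for libraries labelled Il17ra-/- (circles, n = 5) and labelled WT (squares, n = 4). Dusp1 stands highest at 432 ± 24.7 RPKM under the Il17ra-/- label and 491 ± 43.9 RPKM under the wild-type label, followed by Spry2, Spry1 and Mapk3.

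Among the phosphatases, Dusp5 was the only one of 21 to pass, and it fell. Dusp5 encodes a nuclear phosphatase that acts on ERK alone and is induced by ERK. It stood at 3.59, 4.74, 3.51, 2.93 and 8.89 CPM in the libraries labelled Il17ra-/-, against 15.2, 18.2, 10.5 and 10.6 CPM in those labelled wild type. The groups did not overlap, but Il17ra-/- replicate 5 lay closer to wild-type replicates 3 and 4 than to the other 4 libraries of its label. Means were 4.73 ± 2.42 CPM (SD, n = 5) and 13.6 ± 3.77 CPM (SD, n = 4), a log2 fold change of −1.52 (SE 0.31, edgeR adjusted p = 0.0155), with 108 to 556 counts behind each value. The call was lost without Il17ra-/- replicate 3 and without wild-type replicate 2 and Il17ra-/- replicate 1 together (adjusted p up to 0.0585). The gene is at chr19:53529109-53542431, plus strand. An annotated antisense gene covers 547 bp of its exons (22.1% of their length) and had no count in any library. Counting without strand cannot separate reads there, so that absence does not show the stretch to be free of shared reads. The Dusp5 window is the one with the paired CArG boxes shown above.

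The other nuclear MAP kinase phosphatases did not pass. Dusp4, which also acts on ERK in the nucleus, pointed the other way, at 5.52, 3.77, 3.90, 4.66 and 5.28 CPM under the Il17ra-/- label and 1.21, 2.49, 2.74 and 1.66 CPM under the wild-type label. Its groups did not overlap, and its counts were low, at 44 to 224 a library (log2 fold change 1.19, SE 0.31, adjusted p = 0.0605). Dusp1, encoding MKP-1, an early response phosphatase of p38 and JNK, was the most abundant member of all, and per exon length it made up 80.5 ± 0.792% of the summed level of the 21 Dusp genes under the Il17ra-/- label and 82.7 ± 0.974% under the wild-type label. Its values were 1439, 1419, 1551, 1321 and 1425 CPM under the Il17ra-/- label and 1513, 1834, 1609 and 1540.3 CPM under the wild-type label, with overlapping groups (log2 fold change −0.18, SE 0.099, adjusted p = 0.389). Dusp2, the remaining nuclear form and one of immune cells, averaged 0.320 CPM and is not a member.

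The cytoplasmic ERK phosphatases Dusp6 and Dusp7 and the JNK and p38 phosphatases Dusp8, Dusp10 and Dusp16 did not pass, with log2 fold changes between −0.27 and 0.28. Dusp6, a widely used readout of ERK activity, stood at 55.3, 53.1, 50.6, 42.9 and 60.0 CPM under the Il17ra-/- label and 49.3, 47.2, 42.3 and 33.9 CPM under the wild-type label (log2 fold change 0.28, SE 0.13, adjusted p = 0.321). Its groups overlapped, with the lowest value in wild-type replicate 4 and the highest in Il17ra-/- replicate 5. Dusp8 had the lowest log2 fold change of the 5, at −0.27 (adjusted p = 0.326).

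None of the 13 atypical Dusp genes passed, and 2 had an unadjusted p under 0.05, where 16.4% of all tested genes did. Dusp27, a catalytically inactive family member of muscle whose role in sarcomere assembly is known from zebrafish, stood at 4.22, 2.81, 5.50, 4.20 and 6.04 CPM under the Il17ra-/- label and 2.79, 0.492, 1.79 and 0.918 CPM under the wild-type label (log2 fold change 1.597, SE 0.46, adjusted p = 0.0823). Its groups were apart by little, since Il17ra-/- replicate 2 and wild-type replicate 1 nearly met, and the gene was called without wild-type replicate 1 (log2 fold change 2.09, edgeR adjusted p = 0.0299) and with DESeq2. The 10 muscle fibre markers summed to 3279 to 4362 CPM under the Il17ra-/- label and to 1196 to 2961 CPM under the wild-type label, and 3 of the 10 rose and none fell (median log2 fold change 0.79); their part in this value was not tested. Dusp15 averaged 1.55 ± 1.17 CPM under the Il17ra-/- label and 4.01 ± 1.69 CPM under the wild-type label, with overlapping groups (log2 fold change −1.37, SE 0.53, adjusted p = 0.212). Dusp3, a small phosphatase of ERK and JNK, and Dusp11, which acts on RNA, were the most abundant of this class per exon length, at means of 13.9 and 11.986 RPKM, with log2 fold changes of −0.034 and −0.044. The other 9 (Dusp12, Dusp13, Dusp14, Dusp18, Dusp19, Dusp22, Dusp23, Dusp26 and Dusp28) had adjusted p-values of 0.445 to 0.971. Of these, Dusp12 shares 891 bp of its exons (32.5% of their length) with the gene Gm9929 on the other strand, so its value is uncertain.

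All 6 Sprouty and Spred genes had a positive log2 fold change, and 1 of them, Spry1, passed. Spry1 encodes an inhibitor of receptor tyrosine kinase signalling that mouse satellite cells need to return to quiescence after injury. It stood at 214, 199.97, 186, 189.95 and 146 CPM in the libraries labelled Il17ra-/-, against 134, 139, 122 and 85.9 CPM in those labelled wild type. The groups did not overlap, with Il17ra-/- replicate 5 just above wild-type replicate 2 and wild-type replicate 4 well below the rest. The log2 fold change was 0.64 (SE 0.15, edgeR adjusted p = 0.0340), and the call was lost without wild-type replicate 3 or 4 and without each of Il17ra-/- replicates 1, 2, 3 and 4 (adjusted p up to 0.0887). The gene is at chr3:37639947-37644598, plus strand. An antisense model that overlaps 710 bp of its exons (24.4% of their length) had at most 25 counts in a library. Reads in that stretch cannot be separated without strand, so the low count does not show it to be free of shared reads. All 5 satellite cell markers had a positive log2 fold change (median 0.87) and 2 rose. They summed to 128.8 to 167 CPM under the Il17ra-/- label and to 61.3 to 95.8 CPM under the wild-type label, and their part in the rise of Spry1 was not tested.

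Spry4 and Spry2, inhibitors of the same kind, had log2 fold changes of 0.47 (SE 0.13, adjusted p = 0.0721) and 0.24 (SE 0.12, adjusted p = 0.341). Spry4 stood at 60.9, 46.8, 48.7, 51.4 and 47.9 CPM under the Il17ra-/- label and 35.4, 42.4, 40.1 and 29.4 CPM under the wild-type label, without overlap, and was called without wild-type replicate 2. Spry2 was the most abundant gene of this tier per exon length, and its values of 159, 205, 166, 171 and 161 CPM under the Il17ra-/- label and 125, 175, 135 and 147 CPM under the wild-type label overlapped through wild-type replicate 2. Spred2 and Spred1, membrane-bound inhibitors of RAS and RAF, had log2 fold changes of 0.37 (adjusted p = 0.122) and 0.15 (adjusted p = 0.457), and the groups were apart for Spred2. Spred3 was scarce, at 10.3 ± 2.11 CPM under the Il17ra-/- label and 8.42 ± 4.06 CPM under the wild-type label (log2 fold change 0.28, adjusted p = 0.711). The 6 genes summed to 187 ± 15.0 RPKM under the Il17ra-/- label and 144 ± 14.2 RPKM under the wild-type label, and the 21 Dusp genes to 537 ± 26.0 RPKM under the Il17ra-/- label and 593 ± 47.6 RPKM under the wild-type label.

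**Figure D4:**
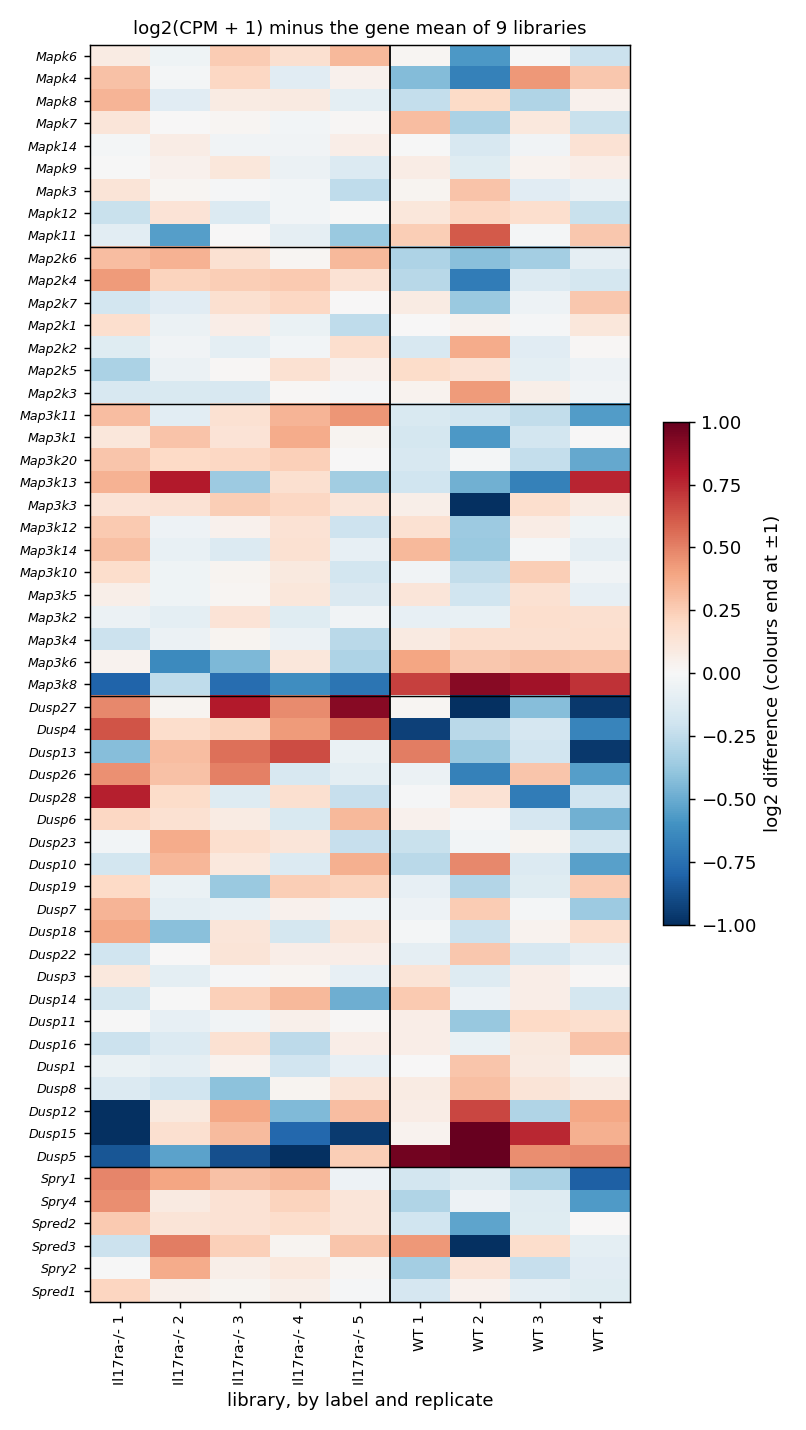
For 56 of the 57 members, log2(CPM + 1) in each library minus the gene's mean over the 9 libraries, labelled Il17ra-/- left and labelled WT right, by tier (colours end at ±1). Map3k8 and Dusp5 are low in all 5 libraries labelled Il17ra-/- relative to the 4 labelled WT, and WT replicate 2 is the library farthest from its group's median for 28 of the 57 members.

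Within a group the members' spread was mostly small, and wild-type replicate 2 was often the library farthest out. The median coefficient of variation was 12.1% under the Il17ra-/- label (3.31% for Dusp11 to 75.4% for Dusp15) and 15.7% under the wild-type label (2.60% for Map3k4 to 78.6% for Map3k13). Wild-type replicate 2 was the library farthest from its group's median for 28 of the 57 members, and each of the other 3 libraries labelled wild type for 7 to 13. Under the Il17ra-/- label, replicate 1 was farthest for 19 members and each of the others for 7 to 13. Fewest genes had a count in wild-type replicate 2 (17256) and Il17ra-/- replicate 1 (18248), against 19258 to 20945 in the other libraries. Without wild-type replicate 2, 7 members passed in place of 4 (3.41% of all genes tested in that fit): Map3k8, Dusp5, Map2k4 and Spry1 again, joined by Map3k20, Dusp4 and Spry4, all higher. The log2 fold changes of Map3k8, Dusp5, Map2k4 and Spry1 were then −1.42, −1.35, 0.47 and 0.72. Leaving out wild-type replicate 2 and Il17ra-/- replicate 1 together gave 6 calls (3.21% of all genes tested): Map3k8, Map3k6, Map2k4, Map3k20, Spry1 and Spry4, and not Dusp5.

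Around the members, 7 lists of pathway genes held 109 genes, of which 107 were tested, with a median log2 fold change of 0.014. In these lists 1 gene rose and 7 fell. That is 7.48%, against 3.06% of all tested genes and 3.62% of those with a mean of at least 1 CPM. The lists were chosen with earlier results of these data known, so this share is not an independent comparison. None of the 26 genes of the RAS and RAF module and none of the 7 tested phosphatases of other families passed, and the smallest p in these belonged to the docking protein gene Gab1 (log2 fold change 0.31, adjusted p = 0.102) and to Ppp2cb, a catalytic subunit of protein phosphatase 2A (−0.22, adjusted p = 0.337). The medians of these lists were −0.020 and 0.012. Of the 19 scaffolds and upstream activators (median −0.027), 1 fell: Gadd45b, a stress-induced activator of MEKK4, to 42.7 ± 11.5 CPM under the Il17ra-/- label, against 118 ± 15.3 CPM under the wild-type label (log2 fold change −1.47, SE 0.19, adjusted p = 5.95e-04). Of the 11 kinases that MAP kinases activate (median 0.067), 1 fell: Mknk2, which phosphorylates the cap-binding factor of translation, to 124 ± 9.16 CPM under the Il17ra-/- label, against 193 ± 21.3 CPM under the wild-type label (log2 fold change −0.64, SE 0.11, adjusted p = 0.00432).

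The genes commonly read as ERK output moved both ways. Of 10 tested (median log2 fold change 0.0011), the transcription factor gene Etv5 rose (27.4 ± 5.19 CPM under the Il17ra-/- label, 17.8 ± 1.20 CPM under the wild-type label, log2 fold change 0.63, adjusted p = 0.0334). Phlda1 (log2 fold change −1.07, adjusted p = 3.72e-04), Myc (−0.95, adjusted p = 0.00419) and Ier3 (−1.01, adjusted p = 0.0182) fell. The call of Etv5 was lost under 8 of 18 alternatives and that of Ier3 under 3. Of the 10 other receptor feedback genes (median 0.14), 1 fell, Errfi1, whose product inhibits the EGF receptor, to 849 ± 171 CPM under the Il17ra-/- label, against 1718 ± 448 CPM under the wild-type label (log2 fold change −1.02, SE 0.18, adjusted p = 0.00690). Of the 24 growth factor ligands and receptors (median 0.14), 1 fell, Hbegf, an EGF receptor ligand, to 10.3, 8.15, 10.995, 12.9 and 11.9 CPM in the libraries labelled Il17ra-/-, against 36.0, 28.1, 30.0 and 28.2 CPM in those labelled wild type (log2 fold change −1.50, SE 0.15, adjusted p = 1.63e-04). Among 16 early response genes (median −0.38, lowest −1.52), 7 fell and none rose, where 1.71% of all tested genes fell. Examples of those that fell are Ier5 (−1.37), Nr4a1 (−0.84) and Klf4 (−0.64). This list too was chosen with earlier results of these data known.

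Markers of some other cell types, but not of all, also differed between the labels. Of 6 mural cell markers (median log2 fold change 0.90), 5 rose (Rgs5, Myh11, Cspg4, Kcnj8 and Notch3), and the list summed to 1676 to 2347 CPM under the Il17ra-/- label and to 998 to 1278 CPM under the wild-type label. Of 4 adipocyte markers 1 rose (median 1.85). These 4 summed to only 7.90 to 28.4 CPM under the Il17ra-/- label and 2.07 to 6.82 CPM under the wild-type label. Of 7 fibroblast markers 1 fell (median −0.12). Across all tested genes, 1.35% rose and 1.71% fell. None of the 6 endothelial (median −0.37) or 4 Schwann cell markers (median −0.42) passed. No marker of the 8 lists was at 0 in all libraries, and the part of these cells in the members' values was not tested.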

How the data were processed

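Per the labels' protocols, TruSeq RNA v2 libraries, which do not mark strand, were made from RNA with an integrity number above 8.0. Per the submitters' processing notes STAR aligned the reads (its version: not given in the sources used here). What the authors deposited are raw gene counts from featureCounts 1.6.0 over exons of GENCODE M21 (GRCm38), for read pairs, without strand or multi-mapping reads, per the file headers. All 55536 identifiers matched GENCODE M21.

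From these counts, genes were filtered with filterByExpr (16039 left), scaled with TMM factors and tested two-sided with edgeR 4.0.16 (R 4.3.3), in 1 fit of the 9 libraries with the labelled genotype as its term. The SE was obtained as log2 fold change / sqrt(F), without sign. RPKM is CPM per kb of exon length. A gene was called at an adjusted p under 0.05. Libraries carried 31.3 to 46.4 M counts, and the members 8 to 71947 counts each per library. Alternatives were other scalings and filters, DESeq2 1.42.0, limma-voom 3.58.1, a replicate block and fits with libraries left out.

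Counts cover all 57 members, of which 1 is not reported here by name or value. Members and gene lists were chosen with earlier results of these data known. Values in every library are given for called members, for the smallest p and the highest level per length in each tier, and for a few others chosen after their values were seen (Dusp4, Dusp6, Dusp27, Map2k6, Map3k6, Spry4). The design text speaks of animals in triplicate, fewer than the 5 and 4 libraries, and none of the labels links a library to an animal, litter or day. Libraries may therefore share animals, and p-values measure only the spread between libraries. The closest pair of libraries in a group differed by 29.5 times the counting variance.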

Additional observations from a re-analysis of the deposited data

Results flagged for a closer look

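Of 114 tests for a library far from the others of its label (57 members in 2 groups), 7 stood out, where chance gives about 1 in 20. Under the Il17ra-/- label, Map3k8 was highest in replicate 2 at 21.7 CPM (14.5 to 16.6 CPM in the others), still below every wild-type library. Spry2 was highest in the same replicate at 205 CPM (159 to 171 CPM in the others). Dusp7 at 24.8 CPM (18.0 to 19.9 CPM) and Spred1 at 126 CPM (108 to 113 CPM) were highest in Il17ra-/- replicate 1. Under the wild-type label, Map3k3 was lowest in replicate 2 at 38.2 CPM (90.2 to 97.9 CPM) and Dusp22 highest in it at 35.8 CPM (26.3 to 27.8 CPM). Map3k4 was lowest in wild-type replicate 1 at 36.95 CPM, in a group whose other libraries spanned 38.9 to 39.1 CPM.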

How the results depend on the processing

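The call of Map3k8 held under all 18 alternatives, at log2 fold changes between −1.58 and −1.37. The number of members called higher was 2. It was 6 with library totals alone, 3 with no filter, 8 with DESeq2 and 1 with the replicate block. It was 4 without wild-type replicate 2 and Il17ra-/- replicate 1 together, and 0 to 5 with 1 library left out. The number called lower was 2. It was 3 with DESeq2 and with limma-voom, and 1 to 3 with 1 library left out. Pathway genes called higher were 1; they were 4 with library totals alone, 3 with no filter, 5 with DESeq2 and 0 to 2 with 1 library left out. Calls over all genes moved as well, so the member counts are to be read beside them. Over all genes 491 were called, 562 with library totals alone, 619 with no filter, where more genes were tested, and 989 with DESeq2. With 1 library left out, 275 to 567 were called (275 without Il17ra-/- replicate 3, 323 without Il17ra-/- replicate 1). The log2 fold change of Map2k1 turned positive with library totals alone (0.0052) and without Il17ra-/- replicate 5 (0.0023), and that of Mapk3 without wild-type replicate 2 (0.023); with 1 library left out they spanned −0.11 to 0.0023 and −0.11 to 0.023. The cause was not tested in any of these. Scaling by totals alone moved the median of all genes to 0.061. All 6 Sprouty and Spred genes stayed above 0 under the 18 alternatives. Replicate numbers share only a number: deviations of same-numbered libraries correlated at −0.017 to 0.056 over 4 pairs, and 2 of the 4 libraries labelled wild type correlated best with their own number. The replicate block called 363 genes and ended the call of Map2k4 (log2 fold change 0.63, adjusted p = 0.0517). Beyond the 4 members called, those called under some alternative were Spry4 (5 of 18), Map3k20 (4), Map3k6 (4), Dusp4 (3), Map3k11 (2), Dusp27 (2) and Map2k6 (1). Depth limits the members with the lowest mean levels, Mapk4 (8 to 62 counts a library), Map3k13 (27 to 182) and Dusp15 (23 to 188), and also Dusp27 (15 to 256).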
